A study of Mus musculus with 15 samples.

Results

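The phase II conjugation enzymes analysed here were the UDP-glucuronosyltransferase (UGT), sulfotransferase (SULT) and cytosolic or mitochondrial glutathione S-transferase (GST) genes of mouse hepatocytes. They were chosen by gene symbol (Ugt1a, Ugt2a, Ugt2b and Ugt3a, Sult1 to Sult7, and Gsta, Gstk, Gstm, Gsto, Gstp, Gstt and Gstz, each followed by its number), leaving out pseudogene names, with at least 10 counts in at least 3 of the 15 libraries. Of 55984 genes listed, 73 matched these names, 7 of them were dropped as pseudogenes and 17 stayed under the count minimum. The remaining 49 genes comprised 19 UGT, 7 SULT and 23 GST genes, and all 49 entered the test, which covered 17488 genes.

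Conjugation is the second step of detoxification in the liver, in which an enzyme attaches a polar group to a drug, hormone, bile pigment or product of oxidation so that it can be exported into bile or blood. UGTs sit in the endoplasmic reticulum and transfer glucuronic acid from UDP-glucuronic acid, SULTs are cytosolic enzymes that transfer sulfate from the cofactor PAPS, and GSTs join the thiol of glutathione to electrophiles. All of these reactions are prominent in hepatocytes, where many of the enzymes differ in level between the sexes, along the axis from portal to central vein, and with nuclear receptor or Nrf2 activity.

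Hepatocytes came from livers of adult male wild-type mice of the C57BL/6JJcl strain, were stained with Hoechst in the presence of reserpine, an inhibitor of efflux pumps, and were sorted by DNA content, so cells of every group met both compounds before RNA was taken. The 2n-whole population held diploid cells and the 4n-whole population all tetraploid cells, while 4n-bottom (lower Hoechst-height) consisted mostly of binucleated cells with a pair of diploid nuclei (2x2n) and 4n-top (higher Hoechst-height) was enriched for cells with 1 tetraploid nucleus (1x4n) but still held many binucleated ones after its single round of sorting. The libraries of each population came from mice 1, 2, 3 and 4, except 4n-top, which had mice 2, 3 and 4. The authors left their sample 4n_Top_1 out of the analysis because its RNA was of poor quality. Diploid cells were pelleted faster and longer than tetraploid cells after sorting, so handling and ploidy cannot be told apart in a comparison with 2n-whole.

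Total counts per library ranged from 22049498 in 4n-whole of mouse 2 to 42096421 in 2n-whole of mouse 1, and the 49 genes took 0.569% to 0.767% of them. Levels below are edgeR's CPM, counts relative to library size after TMM scaling, for which 3 counts, taken as the detection limit, came to 0.0693 to 0.120 CPM, a limit for counting error only. Since CPM is relative to library size, a level is a share of the RNA and not an amount per cell, and in sorted bulk samples fewer cells of a type and less RNA per cell cannot be told apart. The 8 hepatocyte markers, which include albumin, summed to 77871 to 106487 CPM in the 15 libraries. Markers of other cells were far lower, and several were lower in the tetraploid populations. The 8 endothelial markers summed to 18.2 to 29.2 CPM in 2n-whole and 4.65 to 35.0 in 4n-whole. The sum of the 8 macrophage markers averaged 5.00 CPM in 2n-whole, 2.05 in 4n-bottom, 1.29 in 4n-top and 1.38 in 4n-whole. That of the 8 lymphocyte markers averaged 0.634, 0.340, 0.0986 and 0.310 CPM in the same order. The 8 cholangiocyte markers summed to 98.0 to 114 CPM in 2n-whole, 73.9 to 87.9 in 4n-bottom, 58.1 to 77.9 in 4n-top and 54.9 to 72.5 in 4n-whole. The largest parts of that sum were Tm4sf4 and Sox9, with means of 66.5 and 30.8 CPM in 2n-whole and 43.4 and 20.4 in 4n-whole. Krt19, Krt7, Epcam, Cldn7 and Cftr averaged 0.717, 0.265, 0.413, 0.135 and 0.439 CPM in 2n-whole, so the sum says little of cholangiocytes. The part of other cells in the results with 2n-whole was not tested.

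The genes lay mostly in clusters. On chromosome 1 of GRCm39, the 9 Ugt1a genes spanned positions 87983110 to 88147724 and share their last exons, which made 56.6% to 77.2% of each gene's exon length common with a neighbour on the same strand. The 7 Ugt2b genes lay between 87037626 and 87572062 on chromosome 5, with Ugt2a3 among them, and the 7 Gstm genes between 107803137 and 107952210 on chromosome 3. Gsta genes were divided between chromosome 9 (5 genes) and chromosome 1 (Gsta3 alone, from 21310806 to 21335885). Close copies limited some of the counts, since 19 of the 49 genes shared over 10% of their 50-base windows with another gene matching the names, and 21 shared none. In the near-identical pair Gsta1 and Gsta13, 78.6% of the windows of Gsta1 occur in Gsta13 and 87.3% of those of Gsta13 in Gsta1, so the split of reads between these copies is uncertain, and the handling of reads with several matches is not given in the sources used here.

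The level of the families rested on few genes. Per kilobase of whole exon length, which for Ugt1a genes includes the shared exons, Gstp1 was the highest with a mean of 817 CPM per kb over the 15 libraries, followed by Gstm1 with 406, Ugt2b5 with 237 and Gsta3 with 140, and the next GST was Gsta2 with 44.7. Gstp1, a pi-class GST abundant in male mouse liver, alone made 19.5% of the summed CPM of the 49 genes, the 3 genes with the highest CPM made 46.1% and the 10 highest 78.0%. At the other end, 4 genes had a mean under 1 CPM (Ugt1a10, Sult2a7, Gsta5 and Gsto2), 10 lay between 1 and 10 CPM, 21 between 10 and 100 and 14 at 100 or more.

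On the same measure the highest UGT genes after Ugt2b5 were Ugt2b1 (96.5 CPM per kb), Ugt2a3 (87.8) and Ugt2b36 (78.1), all from the chromosome 5 cluster. Among SULTs, Sult1a1, the main phenol sulfotransferase, had 72.0 CPM per kb and Sult2a8, a bile acid sulfotransferase of mouse liver, 57.8, ahead of Sult1d1 with 29.8 and Sult1b1 with 4.95. Only 2 of the 8 Sult2a symbols, Sult2a7 and Sult2a8, passed the count minimum, and Sult1e1, the oestrogen sulfotransferase, had at most 6 counts in any library. Taking the counts of the Ugt1a genes over their unshared exon length, Ugt1a9 was highest of them at 144 CPM per kb, against 41.9 over its whole exon length and 96.5 for Ugt2b1, ahead of Ugt1a1, the bilirubin-conjugating enzyme, at 36.5, Ugt1a5 at 24.1 and Ugt1a6b at 23.6.

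**Figure D1:**
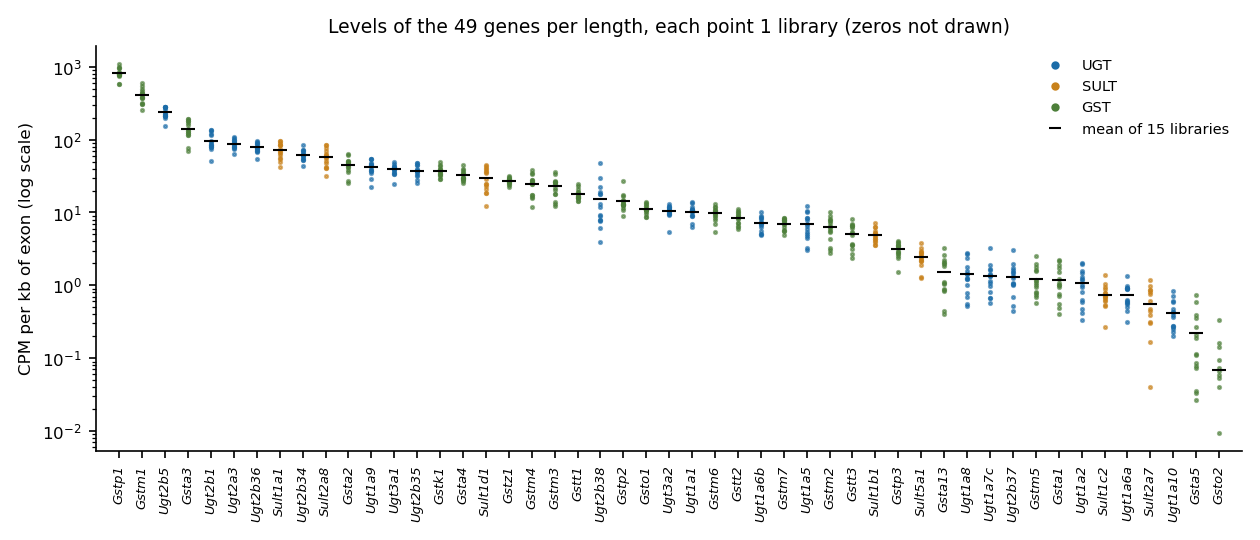
Level of each of the 49 genes in CPM per kb of exon (vertical axis, log scale), with 1 point for each library, coloured by superfamily, and a black bar for the mean of the 15 libraries; values of 0 are not drawn. Genes are ordered from Gstp1, with a mean of 817, down to Gsto2, with 0.0693, and the points of Ugt2b38 spread more widely than those of most genes of a like level.

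What differs with cellular ploidy is asked by setting 4n-whole against 2n-whole. A gene was called at a Benjamini-Hochberg adjusted p under 0.05 over all 17488 genes, by edgeR's quasi-likelihood test with the mouse as a block, and an absolute log2 fold change above 0.5. Of the 49 genes, 3 were called, against 3.47% of all genes tested. Gstm2 and Ugt1a2 rose in 4n-whole (1.74% of all genes rose) and Ugt2b38 fell (1.73% fell). With no limit on the fold change, 9 of the 49 passed, 4 higher and 5 lower, against 5.47% of all genes (2.93% higher and 2.54% lower). Scaled by library totals in place of TMM, 7 were called, 6 higher and 1 lower, against 8.63% of all genes (7.63% higher and 1.00% lower).

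Ugt2b38, a glucuronosyltransferase of the Ugt2b cluster at positions 87557801 to 87572062 of chromosome 5, had the smallest p of the 49 genes. Its level in mice 1 to 4 was 91.2, 42.8, 35.9 and 34.0 CPM in 2n-whole, against 34.1, 15.0, 14.39 and 7.33 CPM in 4n-whole. In 4n-bottom it was 56.0, 24.6, 17.3 and 14.9 CPM, and in 4n-top of mice 2 to 4 it was 22.6, 16.8 and 11.6 CPM. Within each mouse the order was the same, with 2n-whole highest, then 4n-bottom, then 4n-top where it was analysed, and 4n-whole lowest. The ranges of 2n-whole and 4n-whole touched only through mouse 1, which was the highest mouse in every population it had.

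The fall from 2n-whole to 4n-whole was 3.05-fold (log2 fold change -1.61, SE 0.13, adjusted p = 3.8e-08, lower in 4 of 4 mice). Other Ugt2b genes lay much nearer to 0: Ugt2b5, the most abundant of them, had a log2 fold change of -0.23 (SE 0.09, adjusted p = 0.136). All 7 Ugt2b genes had a negative value on the TMM scale, but scaled by library totals the value of Ugt2b5 was -0.02 and that of Ugt2b38 still -1.40. Of the 50-base windows of Ugt2b38, 37.4% occur in another gene of the names, mostly Ugt2b5, so part of its reads could belong to either gene.

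Sult1a1 followed Ugt2b38 most closely over the 15 libraries. Likeness was Spearman's rho of log2 CPM after taking out the effect of each mouse, fitted together with that of population. It was 0.94 for Sult1a1, 0.91 for Ugt2a3 and 0.81 for Ugt2b36. The libraries share mice and scaling, and the values are descriptions. Sult1a1 stood at 210, 204, 286 and 291 CPM in 2n-whole and at 149, 127, 254 and 197 CPM in 4n-whole. It was lower in 4n-whole in 4 of 4 mice, by far less than Ugt2b38 (log2 fold change -0.48, SE 0.09, adjusted p = 0.00138), and so passed the adjusted p without passing the fold limit. The same held for Ugt2a3 (log2 fold change -0.40, SE 0.10, adjusted p = 0.0154), Ugt1a9 (-0.37, SE 0.09, adjusted p = 0.0156) and Gstt3 (-0.46, SE 0.13, adjusted p = 0.0294). Scaled by library totals, the log2 fold change of Sult1a1 was nearer to 0, at -0.27 (adjusted p = 0.0438). By the same scaling it was -0.19 for Ugt2a3 (adjusted p = 0.177), -0.17 for Ugt1a9 (0.325) and -0.25 for Gstt3 (0.206).

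Gstm2, a mu-class GST, and Gsta3, the alpha-class enzyme that conjugates aflatoxin epoxide in mouse liver, had higher values in 4n-whole. Gstm2 was at 5.25, 10.8, 6.26 and 5.86 CPM in 2n-whole and at 19.4, 10.3, 14.8 and 14.9 CPM in 4n-whole, so it was higher in 3 of 4 mice and about level in mouse 2. The rise was 2.14-fold (log2 fold change 1.10, SE 0.23, adjusted p = 0.00440), and it stayed a call in each fit that left out 1 mouse, with log2 fold changes of 0.79 to 1.51. Its neighbour Gstm1, at 977 CPM in 4n-whole and 1060 in 2n-whole, had a log2 fold change of -0.06 (SE 0.12), and the other 5 Gstm genes lay between -0.12 and 0.10. Gsta3 was at 396, 667, 741 and 751 CPM in 2n-whole and at 662, 711, 1028 and 1046 CPM in 4n-whole. It was higher in 4 of 4 mice (log2 fold change 0.45, SE 0.09, adjusted p = 0.00343), under the fold limit on the TMM scale and over it by library totals (0.66).

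Ugt1a2 was called at the lowest level of the 3 genes. Its values were 1.53, 1.09, 4.14 and 1.87 CPM in 2n-whole and 3.09, 4.69, 5.06 and 3.22 CPM in 4n-whole, with overlap between the groups but a higher 4n-whole library in 4 of 4 mice. The rise was 2.03-fold (log2 fold change 1.02, SE 0.30, adjusted p = 0.0392) and was no longer called without mouse 1, 2 or 4 (adjusted p = 0.0623, 0.307 and 0.144). Reads from the exons it shares with the other Ugt1a genes cannot be assigned to 1 of them, and how they were counted is not given in the sources used here. Ugt1a6b, from the same cluster, was at 17.8, 17.4, 24.4 and 17.8 CPM in 2n-whole and at 22.4, 24.8, 29.8 and 30.8 CPM in 4n-whole (log2 fold change 0.48, SE 0.12, adjusted p = 0.0209).

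The abundant enzymes overlapped between the populations. Gstp1 was at 1547, 1784, 1257 and 1287 CPM in 2n-whole and at 1312, 1212, 1320 and 950 CPM in 4n-whole, lower in 3 of 4 mice (log2 fold change -0.29, SE 0.10, adjusted p = 0.0792). Gstm1 was at 774, 1516, 787 and 1163 CPM in 2n-whole and at 925, 1074, 961 and 947 CPM in 4n-whole, and mouse 2 was its highest in each population. The values of Ugt2b5 were 533, 555, 707 and 700 CPM in 2n-whole and 518, 385, 696 and 551 CPM in 4n-whole, lower in 4 of 4 mice without passing the test.

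No other member named for its level was called. Ugt2b1, which glucuronidates phenols, was at 401, 274, 289 and 257 CPM in 2n-whole and 398, 153, 345 and 223 CPM in 4n-whole (log2 fold change -0.19, SE 0.12), and Ugt2b36 at 226, 246, 306 and 298 against 221, 171, 275 and 225 CPM (-0.28, SE 0.10, adjusted p = 0.0901). Sult2a8 had 293, 192, 225 and 267 CPM in 2n-whole and 404, 151, 275 and 299 CPM in 4n-whole (0.15, SE 0.11), so mouse 2 was its lowest in both. Sult1d1, which sulfates catecholamines, had -0.23 (SE 0.12) and Sult1b1, which acts on thyroid hormones, 0.01 (SE 0.18). Gstz1, the maleylacetoacetate isomerase of tyrosine breakdown, had 0.03 (SE 0.09), Gstk1, the kappa class of mitochondria and peroxisomes, -0.20 (SE 0.11) and Gsto1, of the omega class, -0.17 (SE 0.11). None of these passed the adjusted p. Fold changes beyond 1 on the log2 scale that failed the test came from Gsto2 (-2.96, SE 1.79), Sult2a7 (-1.76, SE 0.82) and Gsta5 (-1.41, SE 1.13), each with a mean under 1 CPM and libraries at or near the detection limit.

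The 250 bases before the start of 4 of these genes are shown 5′ to 3′, as RefSeq gives them for GRCm38.p6, an older build than that of the counts. Ugt2b38 and Sult1a1 were chosen for their likeness over the libraries, Gstm2 and Gsta3 because both had their lowest mean in 2n-whole, and Gsta3 also because it ran against Ugt2b38 (rho -0.76). Capitals mark matches to 6 short motifs on either strand.
Ugt2b38, chr5:87424204-87424453, minus strand: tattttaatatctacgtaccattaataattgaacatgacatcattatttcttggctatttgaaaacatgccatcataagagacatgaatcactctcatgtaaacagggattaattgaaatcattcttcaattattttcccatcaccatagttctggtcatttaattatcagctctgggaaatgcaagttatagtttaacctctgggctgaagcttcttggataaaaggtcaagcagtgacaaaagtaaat
Sult1a1, chr7:126676419-126676668, minus strand: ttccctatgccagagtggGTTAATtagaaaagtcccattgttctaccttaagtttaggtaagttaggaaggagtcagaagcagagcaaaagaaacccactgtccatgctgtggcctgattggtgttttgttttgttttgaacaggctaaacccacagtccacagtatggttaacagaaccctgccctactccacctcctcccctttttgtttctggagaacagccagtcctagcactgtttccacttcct
Gstm2, chr3:107986421-107986670, minus strand: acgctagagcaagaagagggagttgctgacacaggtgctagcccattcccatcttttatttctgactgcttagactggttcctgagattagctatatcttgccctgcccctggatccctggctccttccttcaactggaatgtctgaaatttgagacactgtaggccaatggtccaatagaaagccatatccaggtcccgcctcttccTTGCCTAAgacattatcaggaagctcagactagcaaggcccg
Gsta3, chr1:21240335-21240584, plus strand: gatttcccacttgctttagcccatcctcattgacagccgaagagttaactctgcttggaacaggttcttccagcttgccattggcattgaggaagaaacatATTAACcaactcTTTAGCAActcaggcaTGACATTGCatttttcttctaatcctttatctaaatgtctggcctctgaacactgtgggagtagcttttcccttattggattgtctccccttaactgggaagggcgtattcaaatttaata
The motifs were the antioxidant response element to which Nrf2 binds (TGACNNNGC), the core of the xenobiotic response element bound by the aryl hydrocarbon receptor (GCGTG), and motifs of HNF1 (GTTAAT), HNF4 (CAAAGT), C/EBP (TTGCNNAA) and STAT5 (TTCNNNGAA). In Ugt2b38 none of these letters occurred, in Sult1a1 the HNF1 motif, in Gstm2 the C/EBP motif, and in Gsta3 the antioxidant response element and the HNF1 and C/EBP motifs. Of the 42 genes with a RefSeq promoter, 9 held the HNF1 motif (21.4%, against 7.49% of all genes in that table) and 3 the antioxidant response element (7.14%, against 11.5%). GCGTG was found in 9 of the 42 (21.4%, against 30.9%), CAAAGT in 8 (19%, against 14.1%), TTGCNNAA in 7 (16.7%, against 10.8%) and TTCNNNGAA in 3 (7.14%, against 8.13%). A match is a string of letters and not a bound site.

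**Figure D2:**
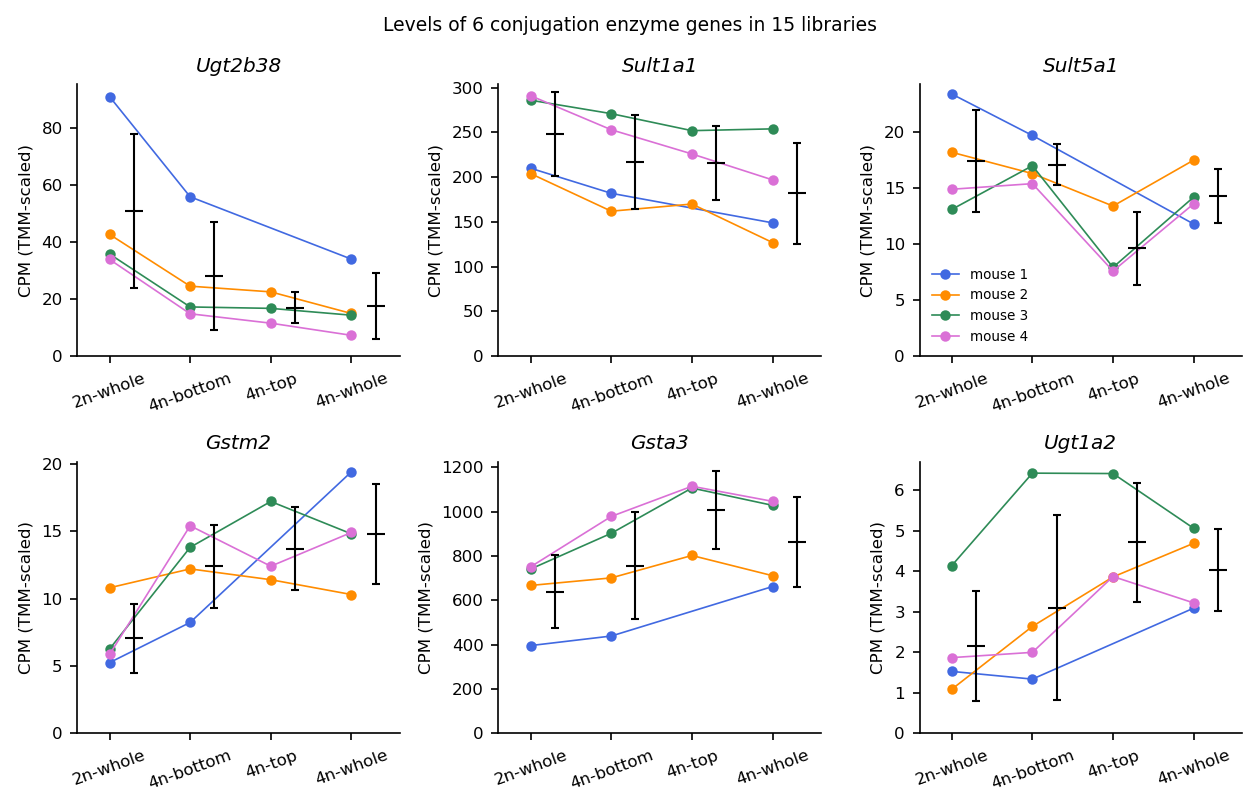
CPM (vertical axes, from 0) of Ugt2b38, Sult1a1, Sult5a1, Gstm2, Gsta3 and Ugt1a2 in the 4 populations, with a point and line for each mouse and a black bar for the mean with its SD (n = 4, or 3 for 4n-top). Ugt2b38 descends from 2n-whole to 4n-whole in every mouse, Sult5a1 dips in 4n-top, and Gsta3 is lowest in 2n-whole in every mouse.

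The same diploid libraries were set against each tetraploid fraction, so these comparisons share their controls with the one above. In 4n-bottom against 2n-whole, 1 of the 49 genes was called, against 0.463% of all genes. It was Ugt2b38, which fell by 0.94 on the log2 scale (SE 0.13, adjusted p = 0.000138, lower in 4 of 4 mice), where 0.229% of all genes fell. By library totals 3 were called, with Gstm2 and Ugt1a6b higher and Ugt2b38 lower, against 0.686% of all genes (0.532% higher and 0.154% lower). Gstm2, at 8.23, 12.2, 13.8 and 15.45 CPM in 4n-bottom, had a log2 fold change of 0.81 (SE 0.23, adjusted p = 0.146), higher in 4 of 4 mice, and was called without mouse 2 (1.08, adjusted p = 0.000670).

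In 4n-top against 2n-whole, 2 of the 49 genes were called, against 0.961% of all genes, and both fell (0.520% of all genes fell). By library totals 6 were called, with Ugt2b38 lower and Gsta3, Gstm2, Sult2a8, Ugt1a2 and Ugt1a6b higher, against 2.40% of all genes (1.94% higher and 0.457% lower). Ugt2b38 did not overlap between the groups and fell by 1.15 on the log2 scale (SE 0.15, adjusted p = 1.7e-05, lower in 3 of 3 mice). Sult5a1, a sulfotransferase of little known substrate on chromosome 8 from 123866931 to 123885779, was at 23.4, 18.2, 13.1 and 14.9 CPM in 2n-whole and at 13.4, 7.93 and 7.60 CPM in 4n-top of mice 2 to 4. Its fall of 0.81 on the log2 scale (SE 0.19, adjusted p = 0.0251, lower in 3 of 3 mice) was no longer called without mouse 3 (adjusted p = 0.0740), without mouse 4 (0.329) or with library totals (0.0676). Gsta3 reached 802, 1106 and 1114 CPM in 4n-top, above every 2n-whole library (log2 fold change 0.49, SE 0.10, adjusted p = 0.00615), again under the fold limit. Gstm2, at 11.43, 17.2 and 12.44 CPM in 4n-top, also lay above every 2n-whole library (log2 fold change 0.91, SE 0.25, adjusted p = 0.0758).

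**Figure D3:**
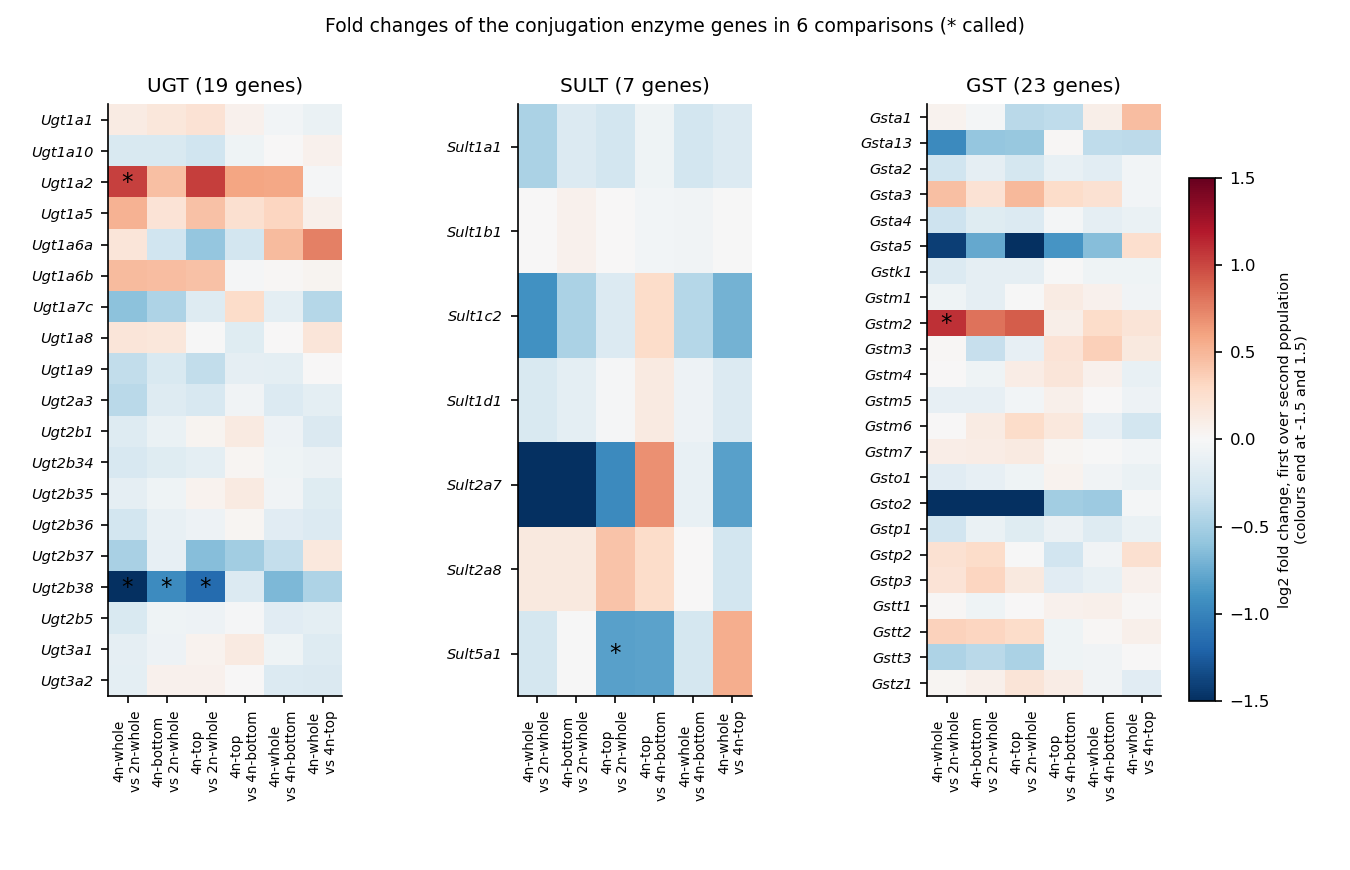
Log2 fold change of the 49 genes (rows, by superfamily) in the 6 comparisons (columns), from blue for lower in the first named population to red for higher, with colours ending at -1.5 and 1.5 and an asterisk for a called gene. Asterisks stand on Ugt2b38 in the 3 comparisons with 2n-whole and on Gstm2, Ugt1a2 and Sult5a1 in 1 each, and deep colours on Gsto2, Gsta5 and Sult2a7 belong to genes with a mean under 1 CPM.

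Comparing 4n-top with 4n-bottom asks what differs with nuclear configuration at the same DNA content. None of the 49 genes was called by edgeR, against 0.0114% of all genes, and 3 had an unadjusted p under 0.05 (2.79% of all genes did), these being Sult5a1, Gsta3 and Sult2a8. Sult5a1 was at 19.7, 16.3, 17.0 and 15.37 CPM in 4n-bottom, above all 3 libraries of 4n-top, with a log2 fold change of -0.80 (SE 0.19, adjusted p = 0.396). Other tools gave this gene a smaller adjusted p, 0.0269 by DESeq2 with the replicate block and 0.00154 by ComBat-seq followed by DESeq2, and each of them called 1 of the 49, against 0.280% and 0.0458% of the genes in those fits. So did edgeR without mouse 2 (adjusted p = 0.00937), where 0.157% of genes were called. Over the 15 libraries, with the mouse effects taken out as above, the genes most like Sult5a1 were Ugt1a9 (Spearman's rho 0.75), Gsta2 (0.60) and Sult1a1 (0.49), given as descriptions. Gsta3 was higher in 4n-top in 3 of 3 mice (log2 fold change 0.27, SE 0.10, adjusted p = 1.00), as was Sult2a8 (0.28, SE 0.12), whose 4n-bottom values were 396, 197, 194 and 333 CPM and 4n-top values 242, 279 and 370 CPM. By p-value, Ugt1a2 came next on the positive side with a log2 fold change of 0.59 (SE 0.31, adjusted p = 1.00), higher in 2 of 3 mice. On the negative side, again by p-value, Gstp2 followed Sult5a1 with a log2 fold change of -0.29 (SE 0.20), and Ugt2b38 had -0.21 (SE 0.14), each with an adjusted p of 1.00. Gstp2 shares 48.1% of its 50-base windows with Gstp1.

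For the 4n-whole population against its fractions, no gene of the 49 was called. Against 4n-bottom, 5 of the 49 had an unadjusted p under 0.05 (5.57% of all genes did), and 0.00572% of all genes were called. Ugt2b38 had the largest difference of the 5, with a log2 fold change of -0.67 (SE 0.13, adjusted p = 0.108, lower in 4 of 4 mice); DESeq2 with the replicate block gave an adjusted p of 0.00265, and edgeR called it without mouse 2 or 3. Against 4n-top, 5 of the 49 again had an unadjusted p under 0.05 (4.00% of all genes did), and 0% of all genes were called. Sult5a1 was higher in 4n-whole in 3 of 3 mice (log2 fold change 0.55, SE 0.18, adjusted p = 0.984) and Ugt2b38 lower in 3 of 3 (-0.46, SE 0.15, adjusted p = 0.984).

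Direction over the families depended on the scaling, as did that over all genes. On the TMM scale 31 of the 49 log2 fold changes between 4n-whole and 2n-whole were negative (63.3%, against 50.7% of all genes) with a median of -0.15, whereas by library totals 21 were negative with a median of 0.06. By totals 28 of the 49 were positive, as were 11765 of the 17488 genes. The choice of scaling moved the median of all genes by a like amount, from -0.01 to 0.20. The split turned likewise in 4n-bottom against 2n-whole, with 16 positive values by TMM and 29 by totals, and in 4n-top against 2n-whole, with 18 and 30. Of all 17488 genes, 8859 were positive by TMM and 11431 by totals in 4n-bottom against 2n-whole. In 4n-top against 2n-whole these were 8751 and 11691. Diploid libraries held 7035 ± 641 CPM of the 49 genes together (SD, n = 4). Their sum was 6762 ± 618 for the binucleated fraction 4n-bottom, 7180 ± 437 for 4n-top (n = 3) and 6490 ± 689 for 4n-whole, and the ranges overlapped. The 4n-top mean lacks mouse 1, so it is not matched to the other means. In mice 2, 3 and 4 the sums were 7717, 6683 and 7411 CPM in 2n-whole and 7025, 7673 and 6841 in 4n-top.

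By superfamily, the UGT genes summed to 2365 ± 192 CPM in 2n-whole and 2031 ± 436 in 4n-whole, the SULT genes to 606 ± 83.2 and 564 ± 154, and the GST genes to 4064 ± 695 and 3895 ± 152 (SD, n = 4 each). The widest library was 4n-whole of mouse 2, the one with the fewest counts, whose UGT genes summed to 1485 CPM and SULT genes to 339, each the lowest of the 15 libraries. Leaving that library out gave 5 calls in 4n-whole against the diploid cells (1.97% of all genes were called), namely Ugt2b38, Gstm2, Gsta3, Ugt1a5 and Ugt1a6b, and Ugt1a2 was not (adjusted p = 0.154).

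For most of the 49 genes the mice differed more than the populations. Over the 12 libraries of mice 2, 3 and 4, in which every population is present, the variance of log2 CPM was divided between population, mouse and the rest. The median share of the 49 genes was 23.8% between populations and 47.0% between mice, where the medians of all genes tested were 24.7% and 25.6%. The share between mice was the larger one in 36 of the 49 (73.5%, against 8746 of 17488 genes), though the 49 genes also had a higher level, with a median of 33.4 CPM against 4.40. Ugt2b38 (75.4% between populations, 19.6% between mice), Sult5a1 (66.8% and 20.7%) and Gstm2 (65.3% and 1.30%) lay on the other side, while Sult1a1 had 22.7% and 71.3%. Mouse 1 is not part of this split, and for Ugt2b38 it was the highest mouse in every population it had. In 2n-whole it had 91.2 CPM of that gene, against 34.0 to 42.8 CPM in the other mice. The share of Ugt2b38 between mice therefore holds for mice 2, 3 and 4 only, and shares with mouse 1 included are not given here.

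Among these 12 libraries the mean of 4n-whole was not between those of its fractions for many genes. It lay below both 4n-top and 4n-bottom in 33 of the 49 (67.3%, against 37.4% of all genes) on the TMM scale and in 25 (51.0%, against 28.4%) by library totals. In 2n-whole the mean was the highest of the 4 populations for 28 genes (57.1%, against 34.1%) on the TMM scale and for 14 (28.6%, against 18.3%) by library totals. The 4n-whole means include the library of mouse 2, which had the fewest counts. Its UGT genes (1485 CPM) and SULT genes (339 CPM) had the lowest sums of the 15 libraries. Values without that library are not given here, so how far these counts rest on it was not tested.

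**Figure D4:**
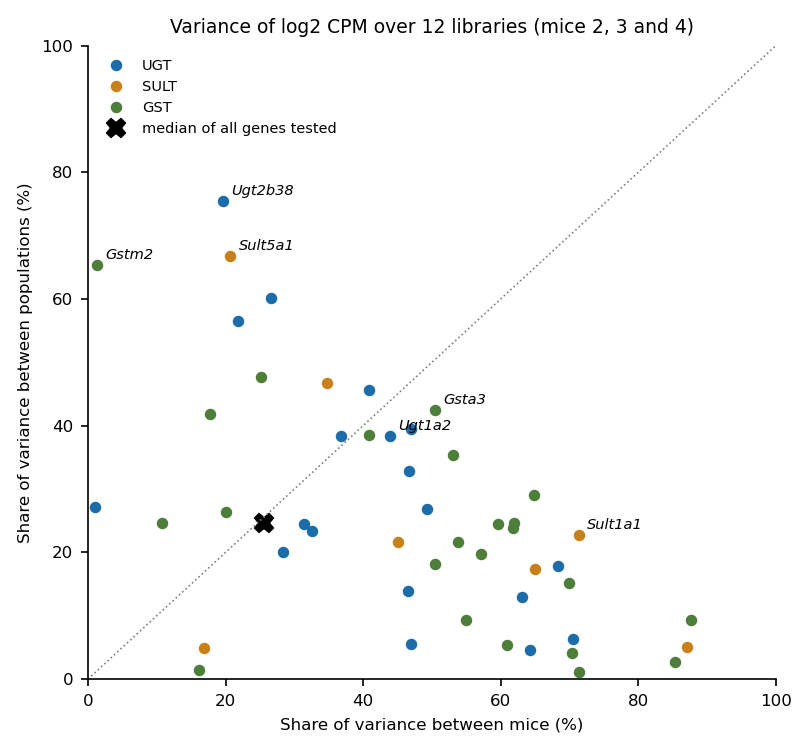
Share of the variance of log2 CPM between mice (horizontal axis, %) and between populations (vertical axis, %) over the 12 libraries of mice 2, 3 and 4, with 1 point for each of the 49 genes, a cross for the medians of all genes tested (25.6% and 24.7%) and a dotted line where both shares are equal. Ugt2b38, Sult5a1 and Gstm2 lie above the line, and 36 genes lie below it.

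Genes that feed, regulate or follow conjugation were taken as lists. Among the genes listed as regulators, which include the enzyme Por (20 of 21 tested), 3 rose in 4n-whole against 2n-whole and none fell, where 1.74% of all genes rose and 1.73% fell. Nr1i3, the nuclear receptor CAR, was at 2.83, 5.34, 17.3 and 10.7 CPM in 2n-whole and at 12.6, 13.6, 37.2 and 31.9 CPM in 4n-whole, higher in 4 of 4 mice (log2 fold change 1.53, SE 0.16, adjusted p = 6.7e-07). Ahr, the aryl hydrocarbon receptor, rose by a log2 fold change of 0.98 (SE 0.16, adjusted p = 0.000300), and Por, the electron donor of cytochromes P450, by 0.65 (SE 0.10, adjusted p = 7.7e-05). These 3 genes rose in 4n-top against 2n-whole as well (0.440% of all genes rose). In 4n-bottom against 2n-whole Nr1i3 rose with Keap1, the repressor of Nrf2 (0.62, SE 0.13, adjusted p = 0.0255), where 0.234% of all genes rose. Nfe2l2, which encodes Nrf2, had a log2 fold change of 0.06 (SE 0.10) between 4n-whole and 2n-whole, and of 15 Nrf2 targets tested outside the families only Hmox1, the haem oxygenase, was called (0.74, SE 0.18, adjusted p = 0.0130).

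For cofactor supply, 1 gene was called in 4n-whole against 2n-whole, against 3.47% of all genes. Ugp2, which makes the UDP-glucose from which UDP-glucuronic acid is formed, belonged to the 5 genes for glucuronidation, with 131, 104, 124 and 150 CPM in 2n-whole and 108, 55.3, 101 and 77.8 CPM in 4n-whole (log2 fold change -0.60, SE 0.12, adjusted p = 0.00316). Ugdh, the next enzyme of that path, had a log2 fold change of 0.08 (SE 0.08). No gene was called among 9 for sulfation or 13 tested for glutathione supply, of which 4 and 2 had an unadjusted p under 0.05 by edgeR (20.4% of all genes did). Of 23 other conjugating enzymes tested, Hnmt, the histamine methyltransferase, fell (log2 fold change -0.85, SE 0.16, adjusted p = 0.00149). Of 8 exporters, Abcc6 rose (0.66, SE 0.12, adjusted p = 0.00119) and Abcb1a, the drug efflux pump P-glycoprotein, fell (-0.83, SE 0.23, adjusted p = 0.0336), while Abcc2, the canalicular conjugate exporter, had 0.24 (SE 0.09, adjusted p = 0.0982). None of these lists had a called gene in 4n-top against 4n-bottom or in 4n-whole against either fraction. Calls of genes outside the families are on the TMM scale. Their values by library totals are not given here. That scaling moved the median of all genes in 4n-whole against 2n-whole from -0.01 to 0.20, and Ugp2, at -0.60, lay near the fold limit.

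**Figure D5:**
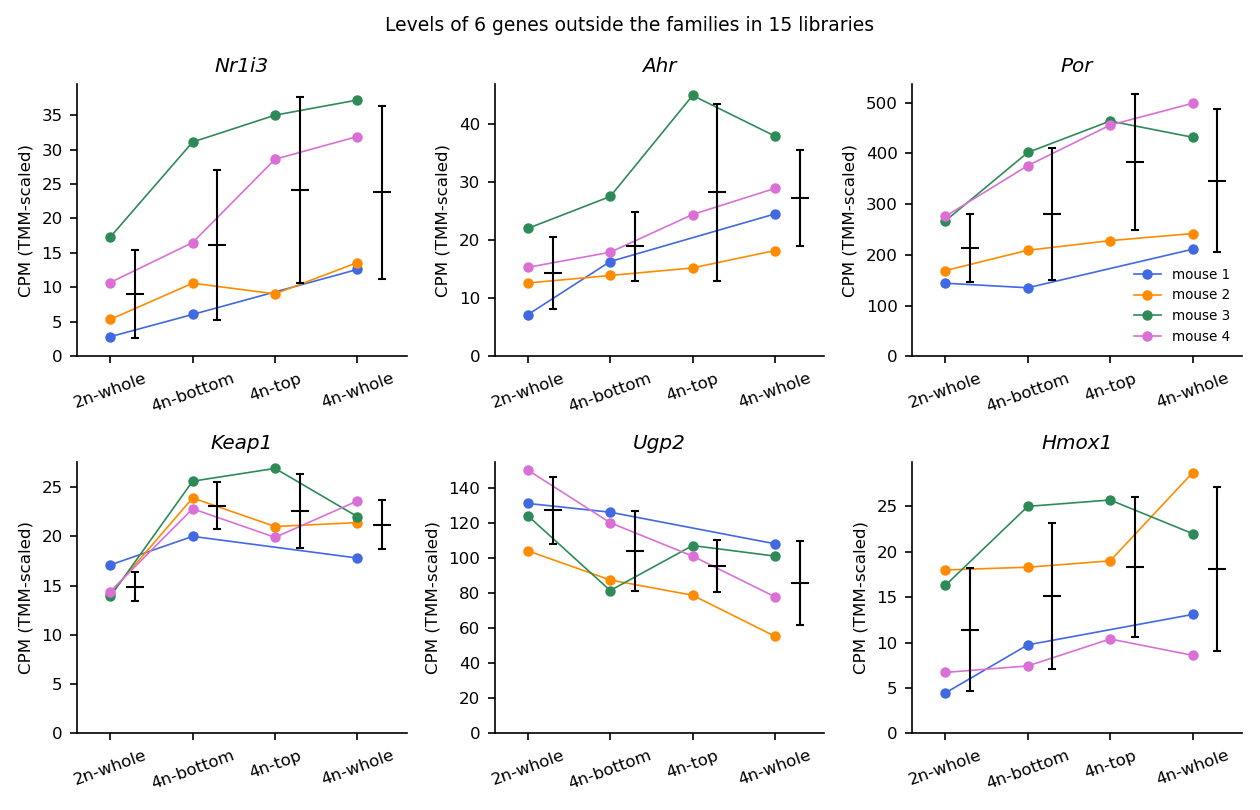
CPM (vertical axes, from 0) of Nr1i3, Ahr, Por, Keap1, Ugp2 and Hmox1 in the 4 populations, drawn as in the plot of 6 enzyme genes by library. Nr1i3 is at 2.83 to 17.3 CPM in 2n-whole and 12.6 to 37.2 in 4n-whole, and mice 3 and 4 are the 2 highest for Nr1i3 and Por in the 4n populations.

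Markers of the zones of the liver lobule differed in level between the populations. The 11 pericentral markers, genes of hepatocytes around the central vein, summed to 693 to 1002 CPM in 2n-whole, 1066 to 2455 in 4n-bottom, 1103 to 3672 in 4n-top and 1122 to 3476 in 4n-whole, and 11 of 11 rose in 4n-whole against 2n-whole, where 1.74% of all genes rose. Of 9 periportal markers, 3 fell in the same comparison (1.73% of all genes fell). In 4n-bottom against 2n-whole 6 of the 11 pericentral markers rose (0.234% of all genes) and none of the 9 periportal markers was called, with sums that averaged 12753 and 12845 CPM. Between 4n-top and 4n-bottom 8 pericentral markers had a positive value and 3 a negative one. Glul, glutamine synthetase of the innermost pericentral cells, was called lower in 4n-top (mean 65.2 against 119 CPM, log2 fold change -0.90, SE 0.16, adjusted p = 0.0499), while Cyp2e1, the most abundant of the 11, averaged 1425 CPM in 4n-top and 751 in 4n-bottom (0.72, SE 0.20, adjusted p = 0.907). The 4n-top means lack mouse 1, so they are not matched to those of 4n-bottom. In mice 2, 3 and 4 Glul was at 26.1, 64.6 and 105 CPM in 4n-top and 41.0, 141 and 211 in 4n-bottom. Cyp2e1 was at 448, 2188 and 1637 CPM in 4n-top and 420, 1019 and 1057 in 4n-bottom. Among markers of other cells, 6 of 6 tested macrophage and 6 of 6 tested cholangiocyte markers had a negative value in 4n-whole against 2n-whole, of which 0 and 3 (Sox9, Spp1 and Tm4sf4) were called. The part of these differences in the levels of Ugt2b38, Gstm2, Gsta3 and Ugt1a2 was not tested.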

How the data were processed

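RNA was measured in 15 libraries of hepatocytes sorted into 4 populations, made with a stranded total RNA kit. The authors aligned reads to GRCm39 with STAR (2.7.11a, per the submitters' processing notes) and deposited raw counts per gene from featureCounts (Subread), without normalization. The annotation, strand setting and handling of pairs and multiple matches are not given in the sources used here. Between 74.2% and 81.4% of counts from 1 to 10 in a library were even, so 3 counts may stand for fewer than 3 fragments. No 4n-top library of mouse 1 was analysed here.

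From the deposited counts, genes were kept by edgeR's filterByExpr (minimum count 10, minimum total 15) and tested over all 17488 with edgeR 4.0.16 (TMM, quasi-likelihood F test, population plus mouse as replicate block) in R 4.3.3. The subject number in the labels names the mouse, so libraries were paired. Residuals of libraries from the same mouse correlated at 0.08 to 0.23. All 4 populations share 1 estimate of the spread. Loci and exon lengths came from GENCODE M39, in which all 49 genes had a position. Alternatives were DESeq2 1.42.0, ComBat-seq (sva 3.50.0) before DESeq2, DESeq2 size factors, no filter, no fold limit, no block, leaving out each mouse and, chosen after seeing the data, library totals and leaving out 1 library.

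Members and lists were chosen with earlier results of these data known. Values are named for Ugt2b38, Sult5a1, every called member, the 4 highest per length of each superfamily, the 3 smallest p-values in each direction of 4n-top against 4n-bottom, the nearest members by rank correlation, and up to 4 called genes of a list. Genes named beyond this rule, among them those that passed the adjusted p alone, were chosen after their values were seen.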

Additional observations from a re-analysis of the deposited data

Results flagged for a closer look

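In 3 of 51 groups of 4 libraries tested over the named members, 1 library stood apart from the other 3 by Dixon's gap test, which chance meets in about 5% of groups. Ugt2b38 was at 91.2 CPM in 2n-whole of mouse 1, where the other 3 mice had 34.0 to 42.8 CPM (gap to the nearest over the whole range 0.846). Mouse 1 was also the highest for this gene in 4n-whole and 4n-bottom.

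Ugt2b1 was at 402 CPM in 4n-bottom of mouse 1, against 235 to 255 CPM in the other 3 mice (gap over range 0.878). Gstp1 was at 1610 CPM in 4n-bottom of mouse 2, against 1274 to 1292 CPM in the other 3 (gap over range 0.946).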

How the results depend on the processing

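Counts of called members moved with the processing, as did the share of all genes called. In 4n-whole against 2n-whole that share was 3.47% in the main fit and 5.47% with no limit on the fold change. It was 8.63% with library totals and 1.97% without 4n-whole of mouse 2. For settings whose share is given neither here nor above, a shift of the members cannot be told from a shift of all genes. In 4n-whole against 2n-whole the 3 calls became 9 with no limit on the fold change, 6 with ComBat-seq, 7 with library totals and 4 with no filter (Ugt1a5 added), and without 1 mouse or library they ranged from 2 to 6 (6 without mouse 3). In 4n-top against 4n-bottom the 0 became 1 with no filter, with DESeq2 and with ComBat-seq, and 0 to 1 with a mouse left out. In 4n-bottom against 2n-whole the 1 call became 2 with no filter, 2 with ComBat-seq and 3 with library totals, and 1 to 2 with a mouse or library left out. In 4n-top against 2n-whole the 2 became 4 with ComBat-seq, 6 with library totals and 3 with no filter or without 4n-whole of mouse 2 (Gstm2 added by both), and 1 to 4 with a mouse left out (4 without mouse 2, 1 without mouse 3 or 4). In 4n-whole against 4n-bottom the 0 became 1 with no filter, DESeq2 and ComBat-seq, and 0 to 1 with a mouse or library left out. In 4n-whole against 4n-top it stayed at 0 in each alternative run. Fewer samples enter each fit with a library left out. The causes of the other shifts were not tested.

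Without the replicate block 0 members were called in each of the 6 comparisons, and 8, 1, 2, 6, 0 and 1 had an unadjusted p under 0.05 (in the order 4n-whole, then 4n-top against 4n-bottom, 4n-bottom and 4n-top against 2n-whole, and 4n-whole against its fractions). The value of Ugt2b38 in 4n-whole against 2n-whole was then -1.52 on the log2 scale, with an adjusted p of 0.175. Shares of all genes without the block are not given here. Over single genes, 3170 values stayed on their side of the threshold, of which 296 changed sign without being called (57 of them by library totals), 45 newly passed it and 13 no longer did, each with its sign kept. At the depth here, genes under 1 CPM were measured with wide errors, as for Gsto2, with a log2 fold change of -2.96 and SE 1.79 in 4n-whole against 2n-whole.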
